A study of Mus musculus with 57 samples.

Results

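The endothelium of the mouse kidney was compared 24 h after ischemia-reperfusion injury (IRI) with that of sham-operated mice, using 3 IRI and 3 sham arrays of the 57 in the series, chosen by the endothelial titles and the treatment they name. The arrays carried RNA from translating ribosome affinity purification (TRAP), in which ribosomes with a tagged L10a protein are pulled from a whole-kidney extract through an antibody to the tag. All endothelial mice were males of 6 weeks on a mixed background of C57BL/6 and 129 and carried cdh5-CRE with Rosa26-CAGGS-eGFPL10a. IRI mice had both renal pedicles clamped for 28 min, sham mice had the same operation without the clamp, and 3 further arrays came from endothelial mice without surgery. Cre from the Cdh5 gene, which encodes VE-cadherin, switches on the tag in endothelium, and every descendant of a cell that has once expressed Cre keeps it. Blood cells that arise from embryonic endothelium therefore carry the tag as well, and the labels name the population only as vascular endothelium. The labels call the arrays biological replicates and do not say how many animals went into each, so p-values measure spread between arrays. For IRI against sham that spread was pooled within 15 groups of 45 arrays, which include arrays of other lines.

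Arrays from other mice served as comparisons. Nephron (six2-CRE), interstitial (foxd1-CRE) and myeloid (lyz2-CRE) lines with the same tag had 3 IRI and 3 sham arrays each. Those mice were 8 weeks old in the nephron line and 6 weeks in the interstitial line, and in the myeloid line 9.5 weeks after IRI and 7 weeks after sham. Wild-type mice with no tag, 8 weeks old, went through the same purification (4 IRI and 2 sham arrays) and show which RNA comes through without tagged ribosomes. The labels of these mice name both C57BL/6 and the mixed background. Mice with Rosa26-CAGGS-eGFPL10a and no Cre, also 8 weeks old, gave another 4 IRI and 2 sham arrays. Their labels give the tag allele both as homozygous and as heterozygous. The 45 arrays of the pooled spread also held 3 arrays without surgery from each of the other lines. Those mice were 6 weeks old in the nephron and interstitial lines and 7 weeks in the myeloid line. Also among the 45 were 3 nephron arrays taken 4 h after IRI, from mice of 8 weeks. Total RNA of mice titled L10a, 8 weeks old, gave 3 IRI and 3 sham arrays at 24 h.

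Endothelial cells line the glomerular tuft, the arteries, the capillaries around the tubules and the vasa recta of the medulla. At rest they keep blood from clotting, keep leukocytes from sticking and set vessel tone through nitric oxide and endothelin. Activated endothelium displays selectins and adhesion molecules that capture neutrophils, releases chemokines and shifts its balance of pro- and anticoagulant proteins.

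By limma with Benjamini-Hochberg adjustment over 19244 genes, 8309 genes (43.2%) differed between IRI and sham at an adjusted p under 0.05. Of these 4131 (21.5%) rose and 4178 (21.7%) fell. Among genes with at least a 2-fold change, 646 rose and 1402 fell, and 30 rose and 30 fell at least 8-fold. All 3 IRI arrays lay above all 3 sham arrays for 6715 genes (34.9%) and below them for 5391 (28.0%). The median change over all genes was 0.07 on the log2 scale, and all changes below are log2 differences of IRI minus sham with the standard error of the fit. Replicate arrays correlated at 0.991 to 0.997, and the median intensities of the 9 endothelial arrays lay between 109.9 and 121.8. Since 43.2% of all genes passed, a gene list with a similar share of calls does not stand out from the rest of the array.

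**Figure D1:**
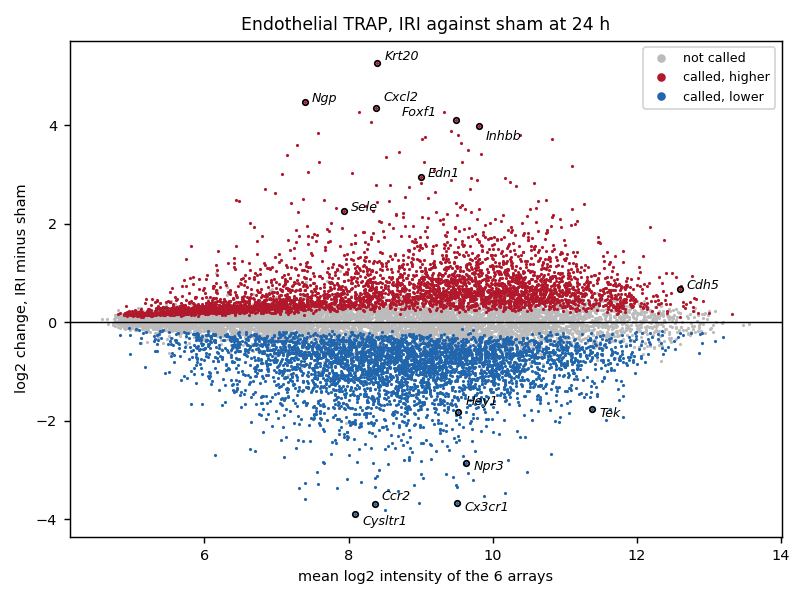
Log2 change (IRI minus sham at 24 h, vertical axis) against the mean log2 intensity of the 6 endothelial arrays (horizontal axis) for 19244 genes; red and blue points passed an adjusted p under 0.05 and grey points did not. Genes lower by 2-fold or more (1402) outnumbered those higher by as much (646), and Krt20 lay farthest from 0.

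The endothelial identity of the arrays was checked first. All 30 pan-endothelial markers were tested, and all 30 lay above the wild-type background after IRI, against 26.6% of all genes (5125 of 19302) that did so. Their mean log2 level lay between 11.22 and 11.38 in the IRI arrays and between 11.45 and 11.63 in the sham arrays. Without surgery it lay between 11.31 and 11.55, so the IRI arrays lay below the sham arrays but overlapped the unoperated ones. Pecam1, the adhesion molecule CD31, read 11.96, 11.97 and 11.97 after IRI and 12.09, 12.03 and 11.94 after sham. Its change was -0.05 ± 0.20 (adjusted p = 0.85), and those of the VEGF receptor Kdr (-0.13 ± 0.20, adjusted p = 0.62) and of the sialomucin Emcn (-0.01 ± 0.24, adjusted p = 0.97) did not pass either. In a bulk purification, fewer cells of a type and less RNA per cell cannot be told apart.

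Within that list 5 markers rose, 8 fell and 17 did not pass, with a median change of -0.13. Tek, the angiopoietin receptor TIE2, fell most. Tek read 10.55, 10.33 and 10.59 after IRI and 12.31, 12.27 and 12.20 after sham, with 12.10 as the mean without surgery, and its change was -1.77 ± 0.31 (adjusted p = 1.4e-05). Erg, an ETS factor that maintains endothelial identity, read 9.18, 9.35 and 9.25 after IRI against 10.70, 10.55 and 10.79 after sham (-1.42 ± 0.11, adjusted p = 4.4e-12). Every IRI array thus lay more than 2-fold below every sham array for both genes. Sox18, a SoxF factor, fell by 1.36 (SE 0.18), and Icam2, a resting adhesion molecule, by 1.07 (SE 0.10). Tie1, the partner of TIE2 (-0.65 ± 0.12), the adrenomedullin receptor parts Calcrl (-0.72 ± 0.23) and Ramp2 (-0.54 ± 0.14), and Nos3, the endothelial nitric oxide synthase (-0.50 ± 0.13, adjusted p = 0.002), also fell. The 5 that rose did so by less than 2-fold, from Sox17 (0.42 ± 0.13) to Cdh5 (0.67 ± 0.22). Cdh5 read 12.84, 12.93 and 13.00 after IRI and 12.32, 12.31 and 12.15 after sham, and its adjusted p went from 0.014 to 0.052 without sham replicate 3. Without that array 2 of the markers in place of 5 were called higher, while the number called lower ranged up to 13 when the 9 endothelial arrays were fitted alone.

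**Figure D2:**
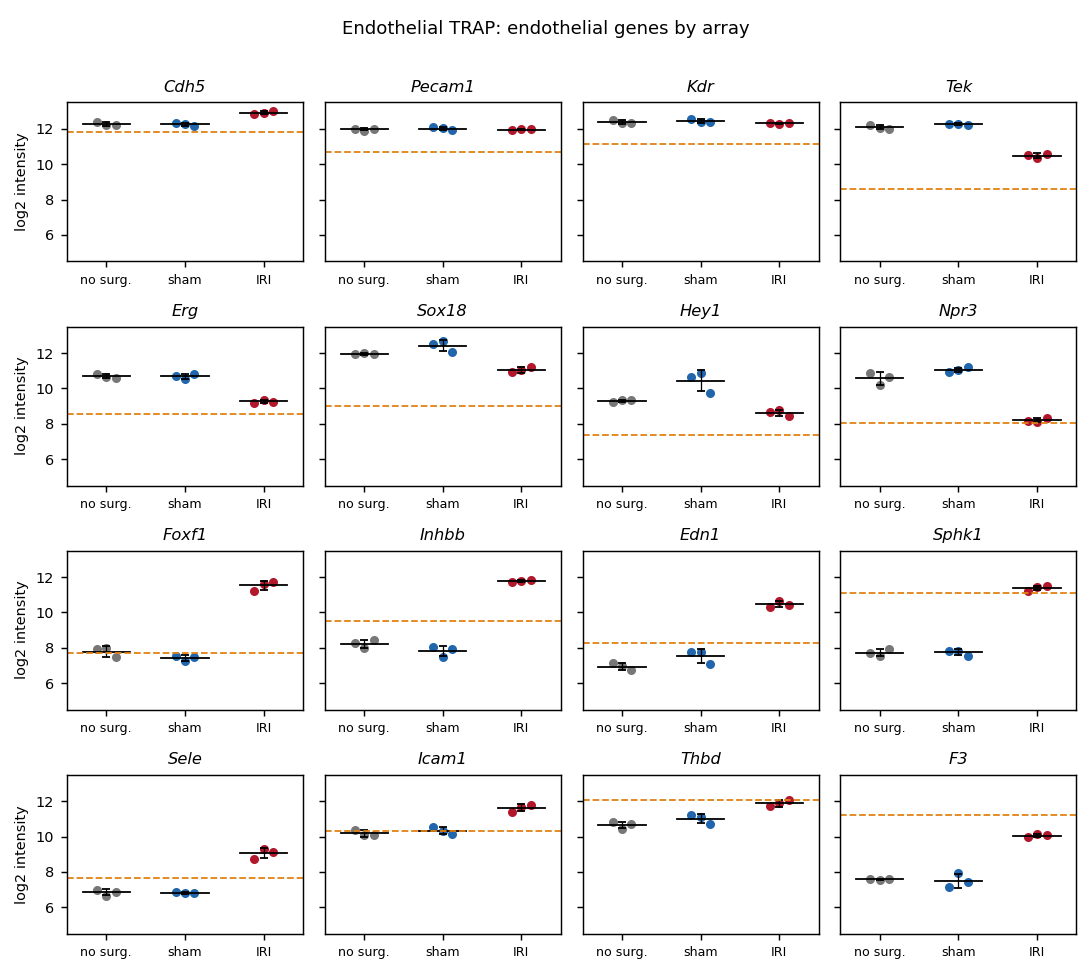
Log2 intensity of 16 endothelial genes in each endothelial array (points: grey no surgery, blue sham, red IRI, 3 arrays each; black lines mean ± SD); the dashed orange line is the mean of the 4 wild-type background arrays after IRI. Tek, Erg, Sox18, Hey1 and Npr3 were lower in all 3 IRI arrays than in all 3 sham arrays, while Foxf1, Inhbb, Edn1, Sphk1, Sele and Icam1 were higher; Pecam1 overlapped.

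Markers of single vessel segments were counted next. Arterial markers fell in 5 and rose in 4 of 18, and capillary and venous markers fell in 7 and rose in 3 of 16. Vasa recta markers fell in 4 and rose in 0 of 8. Medians were -0.12, -0.31 and -0.32. Of all genes 21.7% fell and 21.5% rose, shares near those of the arterial and glomerular lists. Of the 8 vasa recta markers 2 lay above the wild-type background after IRI, and their median change in that background was -0.53. Among those that fell, Aqp1 lost its call under 6 of 20 alternative analyses. Hey1, a Notch target of arteries, read 8.64, 8.77 and 8.42 after IRI and 10.64, 10.89 and 9.75 after sham (-1.82 ± 0.17, adjusted p = 2.2e-10). Hey1 was also higher in sham than in unoperated mice by 1.13 ± 0.17, so that against no surgery its fall was -0.69 ± 0.17 (adjusted p = 0.0015). The arterial gap junction gene Gja5 fell by 1.63 (SE 0.14), the Notch ligand Dll4 by 0.90 (SE 0.11) and the ephrin Efnb2 by 0.85 (SE 0.20). Npr3, the clearance receptor for natriuretic peptides, read 8.18, 8.12 and 8.31 after IRI against 10.94, 11.03 and 11.19 after sham. Its fall (-2.85 ± 0.23, adjusted p = 4.4e-12) was the largest of the capillary and venous list and left it near the wild-type background of 8.02. Aplnr, the apelin receptor of veins and capillaries, fell by 1.88 (SE 0.18), and the urea transporter of descending vasa recta, Slc14a1, by 1.53 (SE 0.17). Glomerular markers were mixed, with 4 of 14 higher, 3 lower and a median of -0.07. Smad6, an inhibitor of BMP signalling, rose by 1.20 (SE 0.15), and Gata5 fell by 1.06 (SE 0.14). Of 7 lymphatic markers 3 rose and 1 fell, but 0 were called higher without IRI replicate 3 or without sham replicate 3, and 1 without IRI replicate 1.

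Among 33 endothelial transcription factors 11 rose and 12 fell. Foxf1, a forkhead factor of the embryonic and lung vasculature, rose most among genes of this list. Foxf1 read 11.22, 11.63 and 11.75 after IRI and 7.57, 7.24 and 7.50 after sham, and it averaged 7.79 without surgery. The rise was 4.10 ± 0.15 (17.2-fold, adjusted p = 2.2e-20), and a second probe set of the gene rose by 5.40. In wild-type background arrays Foxf1 averaged 7.71 after IRI and 7.47 after sham, close to the endothelial sham level, so the IRI arrays of the endothelial line stood 3.82 above the background (adjusted p = 2.3e-22). Of the flow-responsive factors, Klf4 rose by 0.64 (SE 0.17) and Klf2 changed by -0.07 ± 0.15 (adjusted p = 0.74). Klf6 rose by 1.03 (SE 0.25) and Foxc2 by 0.94 (SE 0.11). Besides Erg, Sox18 and Hey1, the haematopoietic and endothelial factor Lyl1 fell by 1.65 (SE 0.19), the ETS repressor Elk3 by 1.17 (SE 0.17) and Mef2c by 1.00 (SE 0.14).

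Leukocyte adhesion genes were called higher in 8 and lower in 2 of 16 (median change 0.17). In the nephron, interstitial and myeloid lines the median was 0.08, 0.33 and 0.17. It was 0.32 in the wild-type background and 0.66 in mice with the tag allele and no Cre. For 3 genes the endothelial change lay above the mean of the other lines and for 5 below it. Of the 8 that rose, 5 lay above the wild-type background after IRI and 0 below it. E-selectin, Sele, which tethers rolling neutrophils to activated endothelium, read 8.75, 9.28 and 9.15 after IRI and 6.85, 6.79 and 6.80 after sham. That rise was 2.25 ± 0.14 (4.75-fold, adjusted p = 1.8e-14), and Sele averaged 7.67 in the wild-type background after IRI. The integrin ligand Icam1 rose by 1.29 (SE 0.17, adjusted p = 1.6e-07), with 11.42, 11.66 and 11.80 against 10.54, 10.31 and 10.17. The membrane-bound chemokine Cx3cl1 rose by 0.97 (SE 0.17). Vcam1, the ligand of the integrin VLA4, rose by 0.98 (SE 0.35, adjusted p = 0.025), but 3 of 6 arrays each took its call away when left out: adjusted p = 0.067 without IRI replicate 3, 0.064 without sham replicate 2 and 0.10 without sham replicate 3. With each array shifted to the same median, and likewise without sham replicate 2, 5 adhesion genes in place of 8 were called higher.

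Vascular tone genes rose in 8 and fell in 8 of 24. Edn1, the precursor of the vasoconstrictor endothelin, read 10.33, 10.66 and 10.41 after IRI and 7.78, 7.74 and 7.06 after sham (2.94 ± 0.29, 7.68-fold, adjusted p = 5.5e-10). Adm, the dilator peptide adrenomedullin, read 10.89, 10.87 and 10.82 against 8.13, 7.94 and 7.88 (2.88 ± 0.20, adjusted p = 2.6e-13). Apelin, Apln, rose by 2.13 (SE 0.23) over sham and by 1.02 (SE 0.23) over no surgery, since its sham arrays lay 1.11 (SE 0.23) below the unoperated ones. Ptgs2, the inducible cyclooxygenase, rose by 2.26 (SE 0.36), and Kcnj8, the pore of a vascular ATP-sensitive potassium channel, by 1.79 (SE 0.21). The natriuretic peptide receptor Npr1 fell by 1.52 (SE 0.14), and the receptor genes Npr3, Aplnr, Calcrl and Ramp2 fell as given above. Thromboxane synthase, Tbxas1, fell by 1.61 (SE 0.15).

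Coagulation and fibrinolysis genes were called higher in 13 and lower in 2 of 23 (median change 0.42). The median was higher in the nephron (1.09), interstitial (1.07) and myeloid lines (0.90) and in the wild-type background (1.31). For 5 genes the endothelial change lay above the mean of the other lines and for 9 below it. Of the 13 that rose, 5 lay above the background after IRI and 2 below it. Tissue factor, F3, which starts the clotting cascade, read 9.95, 10.13 and 10.07 after IRI and 7.16, 7.94 and 7.40 after sham (2.55 ± 0.21, 5.85-fold, adjusted p = 1.2e-11). F3 was higher still in the wild-type background after IRI, at a mean of 11.24. Anticoagulant receptors rose as well. The protein C receptor Procr read 10.74, 10.94 and 10.92 against 8.80, 8.65 and 9.26 (1.96 ± 0.18), 2.05 above the background, and thrombomodulin, Thbd, rose by 0.88 (SE 0.23, adjusted p = 0.0021). Thbd averaged 12.06 in the background after IRI, and the test of the endothelial arrays against it did not pass (adjusted p = 0.56). The urokinase receptor Plaur rose by 2.31 (SE 0.22), the plasminogen activator Plat by 1.42 (SE 0.27) and the metalloprotease Adamts1 by 1.93 (SE 0.23). Tfpi, the inhibitor of tissue factor, read 8.06, 7.83 and 7.89 after IRI and 8.90, 8.75 and 8.64 after sham and fell by 0.84 (SE 0.18, adjusted p = 0.00027). Factor VIII, F8, fell by 0.68 (SE 0.16), while von Willebrand factor, Vwf, changed by 0.22 ± 0.16 (adjusted p = 0.26).

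Angiogenic ligands and receptors were called higher in 15 and lower in 15 of 38 (median change -0.30). Placental growth factor, Pgf, read 9.35, 9.71 and 9.78 after IRI and 7.23, 7.43 and 6.89 after sham (2.43 ± 0.19, adjusted p = 3e-12). The EGF-family ligand Hbegf rose by 2.76 (SE 0.27). Angpt2, which antagonises TIE2, read 10.75, 10.80 and 10.89 against 9.42, 9.63 and 9.16 (1.41 ± 0.20, adjusted p = 5.3e-07). The guidance receptor Unc5b rose by 1.40 (SE 0.14) and the chemokine receptor Cxcr4 by 1.76 (SE 0.27). Several receptors fell. Nrp1, the VEGF co-receptor, fell by 1.91 (SE 0.25), Notch4 by 1.06 (SE 0.16) and Flt4 by 0.92 (SE 0.22), and the TIE receptors fell as above. Flt1 (-0.41 ± 0.22, adjusted p = 0.14) and the tip-cell gene Esm1 (-0.21 ± 0.18, adjusted p = 0.35) did not pass. The vascular growth factors Vegfb (-0.96) and Pdgfd (-0.93) also fell.

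Genes of activin, TGF-beta and BMP signalling rose in 7 and fell in 3 of 26. Inhbb, the activin B subunit, was the largest of them. Inhbb read 11.73, 11.79 and 11.87 after IRI and 8.03, 7.48 and 7.92 after sham (3.99 ± 0.22, 15.9-fold, adjusted p = 6.4e-16), and it averaged 8.22 without surgery. Wild-type background arrays after IRI held a mean of 9.52, which the endothelial arrays exceeded by 2.28 (adjusted p = 4.5e-09). Thbs1, an activator of latent TGF-beta, rose by 2.40 (SE 0.18), Tgfb3 by 1.39 (SE 0.25) and Bmp2 by 1.20 (SE 0.20). The endothelial receptor Acvrl1 fell by 0.73 (SE 0.14) and Tgfbr1 by 0.75 (SE 0.17).

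Junction and barrier genes rose in 8 and fell in 5 of 24, and 9 fell when the 9 endothelial arrays were fitted alone. Sphk1, which makes the barrier-protective lipid sphingosine-1-phosphate, read 11.24, 11.42 and 11.48 after IRI and 7.84, 7.84 and 7.57 after sham (3.63 ± 0.20, 12.4-fold, adjusted p = 4.5e-16). Its wild-type background after IRI was 11.10, and the test of the endothelial arrays against it did not pass (adjusted p = 0.18). The receptor of that lipid, S1pr1, rose by 0.60 (SE 0.17). Arhgef15, a guanine nucleotide exchange factor of endothelium, read 8.48, 8.67 and 9.02 against 10.91, 10.80 and 11.12 and fell by 2.21 (SE 0.13, adjusted p = 3e-15). Beta-catenin, Ctnnb1, fell by 0.85 (SE 0.23). Among 21 solute carriers and lipid-handling genes 9 rose and 7 fell (4 without IRI replicate 1). Of the 9 that rose, 2 lay above the wild-type background after IRI and 4 below it. The median change of this list was 0.28 in the endothelial line and 0.79 in that background. In the nephron, interstitial and myeloid lines it was 0.71, 0.83 and 0.69. The amino acid carriers Slc7a1 (2.24 ± 0.17) and Slc7a5 (2.23 ± 0.23) rose, and the fatty acid regulator Pparg (-1.07 ± 0.21) and the scaffold Slc9a3r2 (-1.92 ± 0.28) fell.

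Immediate early and AP-1 genes were called higher in 22 and lower in 0 of 24 (median change 1.45). These are the Fos, Jun and Egr factors and their targets, switched on soon after stress. Jun itself changed by 0.27 ± 0.14 (adjusted p = 0.13). Fosl1 read 10.77, 11.08 and 10.95 after IRI and 7.24, 6.96 and 7.34 after sham (3.75 ± 0.22, adjusted p = 2.3e-15), Fos rose by 3.34 (SE 0.21) and Fosb by 3.45 (SE 0.32). The matricellular gene Ccn1 rose by 3.71 (SE 0.33). In this list 13 of the 22 that rose lay above the wild-type background after IRI and 1 lay below it, and the median rise in the background arrays was 2.13.

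Other stress programmes rose more than they fell. Heat shock genes rose in 8 and fell in 2 of 13 (0 fell without IRI replicate 2, IRI replicate 3 or sham replicate 2, and 1 without each of the others), led by Hspa1a, the inducible HSP70, at 12.71, 12.67 and 12.70 after IRI and 9.44, 9.82 and 9.29 after sham (3.18 ± 0.36, adjusted p = 7e-09). Unfolded protein and ATF4 response genes were higher in 11 and lower in 3 of 22 by the same test, with the factor Cebpb at 2.93 ± 0.32, the chaperone Hspa5 at 0.91 ± 0.14 and the cochaperone Sdf2l1 at -1.28 ± 0.26. NRF2 targets rose in 9 and fell in 4 of 15 (1 fell without sham replicate 2), from the cystine carrier Slc7a11 (3.01 ± 0.26) and metallothionein Mt2 (1.94 ± 0.16) to the quinone reductase Nqo1 (-1.06 ± 0.40, adjusted p = 0.029). Of the 9 that rose, 5 lay below the wild-type background and 1 above it. Targets of p53 were called higher in 13 and lower in 1 of 17 (median change 0.99). The death receptor gene Tnfrsf10b read 10.29, 10.96 and 10.86 against 8.44, 8.06 and 8.36 (2.42 ± 0.29, adjusted p = 2.3e-08). Of the 13 p53 targets that rose, 8 lay above the wild-type background after IRI and 3 below it. In that background the median change of the list was 0.74. Among 25 genes of the hypoxia and glycolysis list 11 rose and 4 fell. The glycolytic activator Pfkfb3 rose by 1.28 (SE 0.17), the glucose carrier Slc2a1 by 1.08 (SE 0.16) and the liver-type phosphofructokinase Pfkl fell by 1.28 (SE 0.19).

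Pdk4 and Rasd1 belonged to none of the lists and were among the 12 largest rises. Pdk4, the kinase that closes pyruvate dehydrogenase, read 12.24, 12.28 and 12.31 after IRI and 8.22, 8.69 and 8.49 after sham (3.81 ± 0.30, adjusted p = 2.3e-12). Rasd1, a glucocorticoid-induced small GTPase, read 11.03, 11.50 and 11.72 against 7.51, 7.72 and 7.64 (3.79 ± 0.26, adjusted p = 7.9e-14). Both also rose in the wild-type background, where Pdk4 averaged 12.94 and Rasd1 10.70 after IRI. Extracellular matrix and remodelling genes rose in 19 and fell in 0 of 36. Basement membrane collagen Col4a1 rose by 1.28 (SE 0.13), and 9 of the 19 lay below the wild-type background after IRI, among them tenascin C, Tnc (2.79 ± 0.41, background mean 12.28).

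Of 33 genes for cytokines, chemokines and the NF-kB pathway 14 rose and 3 fell (median change 0.30). This median was 0.38, 0.77 and 0.47 in the nephron, interstitial and myeloid lines and 0.71 in the wild-type background. The endothelial change lay above the mean of the other lines for 6 genes and below it for 8. Cxcl2, which draws neutrophils through CXCR2, read 10.43, 10.45 and 10.76 after IRI and 6.09, 6.19 and 6.35 after sham (4.34 ± 0.41, 20.2-fold, adjusted p = 1.8e-10). The background mean of Cxcl2 was 9.54 after IRI, and the endothelial arrays lay 1.01 above it without passing the test (adjusted p = 0.14). Ccl2, the monocyte attractant, read 10.39, 10.88 and 10.94 against 7.51, 7.59 and 7.84 (3.09 ± 0.27, adjusted p = 2.2e-11) and stood 2.49 above the background. Socs3, a brake on cytokine signalling, rose by 2.85 (SE 0.23), Il6 by 2.46 (SE 0.32) and Cxcl1 by 2.13 (SE 0.27). Against the mean response of the other lines, Ccl2 passed the test, while Cxcl2, Socs3, Il6 and Cxcl1 did not. Il33, a nuclear alarmin of endothelium, read 7.72, 7.49 and 8.04 after IRI and 10.02, 9.93 and 9.82 after sham and fell by 2.18 (SE 0.27, adjusted p = 5.9e-08). Ccl12 fell by 2.23 (SE 0.14). Neutrophil genes, described after the interferon genes, rose in the same arrays, and their part in the rise of cytokine and adhesion genes was not tested.

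Interferon response genes went down in 9 and up in 1 of 18, with a median of -0.52. That median was 0.03 in the nephron, -0.63 in the interstitial and -0.95 in the myeloid line, where 15 genes fell. In the wild-type background it was -0.12. The antiviral sensor gene Oas1a read 7.11, 7.09 and 7.19 after IRI and 9.05, 8.82 and 8.67 after sham (-1.72 ± 0.11, adjusted p = 2.3e-14). Usp18, which restrains interferon signalling, fell by 1.65 (SE 0.20), Cmpk2 by 1.52 (SE 0.15) and the GTPase Gbp4 by 1.46 (SE 0.15). Antigen presentation genes fell in 6 and rose in 0 of 13. Their median was -0.18 in the endothelial line and 0.30, -0.77 and -0.25 in the nephron, interstitial and myeloid lines. The immunoproteasome subunits Psmb9 (-1.62 ± 0.15) and Psmb8 (-1.25 ± 0.18) fell, as did the class II activator Ciita (-2.23 ± 0.21) and the class II chaperone H2-DMa (-1.20 ± 0.27). B2m, the light chain of class I, changed by -0.05 ± 0.17 (adjusted p = 0.83). Macrophage and lymphocyte markers moved in the same direction as these genes, as given next, and their part in the fall was not tested.

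Blood cell genes made up many of the largest changes. Neutrophil genes were called higher in 17 and lower in 0 of 18 (median change 2.90), and 16 of the 17 lay above the wild-type background. Their mean log2 level was 9.49 to 9.60 in the IRI arrays, 6.68 to 7.19 in the sham arrays and 6.31 to 6.75 without surgery, and 0 of the 18 stayed under log2 6.5 in all 6 arrays. Ngp, a granule protein of maturing neutrophils, read 9.21, 9.86 and 9.81 after IRI and 5.25, 5.20 and 5.01 after sham (4.47 ± 0.36, 22.2-fold, adjusted p = 4.5e-12). The chemokine receptor Cxcr2 read 10.21, 10.23 and 10.36 against 6.58, 5.81 and 5.64 (4.26 ± 0.29, adjusted p = 1.5e-13). The decoy receptor Il1r2 (4.26 ± 0.19), the lectin Clec4d (4.05 ± 0.19), the histidine decarboxylase Hdc (3.88 ± 0.19) and the receptor Trem1 (3.84 ± 0.12) were also among the 12 largest rises. Mpo, a granule enzyme made in the bone marrow, changed by 0.01 ± 0.10 (adjusted p = 0.95). The same list had a median rise of 3.84 in the myeloid line, 1.61 in the interstitial line, 0.17 in the nephron line and 0.85 in the wild-type background.

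Macrophage, monocyte and dendritic cell genes fell in 14 and rose in 3 of 27, with a median of -0.69. Their mean log2 level was 9.58 to 10.10 after IRI, 10.48 to 10.71 after sham and 10.31 to 10.46 without surgery, so IRI arrays lay below both control groups. Ccr2, the receptor of inflammatory monocytes, read 6.56, 6.57 and 6.42 after IRI and 10.32, 10.22 and 10.05 after sham (-3.68 ± 0.22, 12.8-fold lower, adjusted p = 4.1e-15). The fractalkine receptor Cx3cr1 read 7.84, 7.56 and 7.60 against 11.19, 11.56 and 11.27 (-3.67 ± 0.23, adjusted p = 1.9e-14). Ccr2 stood 3.76 above the wild-type background after sham and 0.24 above it after IRI (adjusted p = 0.31). The dendritic cell receptor Clec9a (-3.37 ± 0.18) and the leukotriene receptor Cysltr1 (-3.89 ± 0.26, the largest fall of a named gene) stood 0.17 and 0.20 above the background after IRI. General macrophage genes moved less: Cd68 fell by 1.38 (SE 0.28), Adgre1 by 1.11 (SE 0.26) and C1qa by 0.69 (SE 0.24), while Lyz2 changed by -0.79 ± 0.36 (adjusted p = 0.076). Tlr8 (1.90 ± 0.26), Cd14 (1.34 ± 0.33) and Chil3 (1.29 ± 0.11) rose. Adgre1 read 11.30 in IRI replicate 1 and 9.86 and 9.73 in the other IRI arrays, and Ms4a7 8.65 against 6.74 and 6.71, so that array held more of these messages than the other IRI arrays.

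Lymphocyte genes fell in 11 and rose in 1 of 16. The killer cell gene Nkg7 read 6.67, 7.17 and 6.74 after IRI and 9.29, 8.80 and 9.18 after sham (-2.23 ± 0.22, adjusted p = 3.3e-10), and Cd3g of the T cell receptor complex fell by 1.89 (SE 0.16). The list mean was 6.51 to 6.65 after IRI and 7.12 to 7.32 after sham. Of the 16 members 7 stayed under log2 6.5 in all 6 arrays. Platelet genes were higher in 6 and lower in 0 of 7 by the same test, with the chemokines Ppbp (1.13 ± 0.26) and Pf4 (0.96 ± 0.17) in front. All 6 lay above the wild-type background after IRI, and the list mean was 8.31 to 8.67 after IRI against 7.75 to 7.97 after sham.

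**Figure D3:**
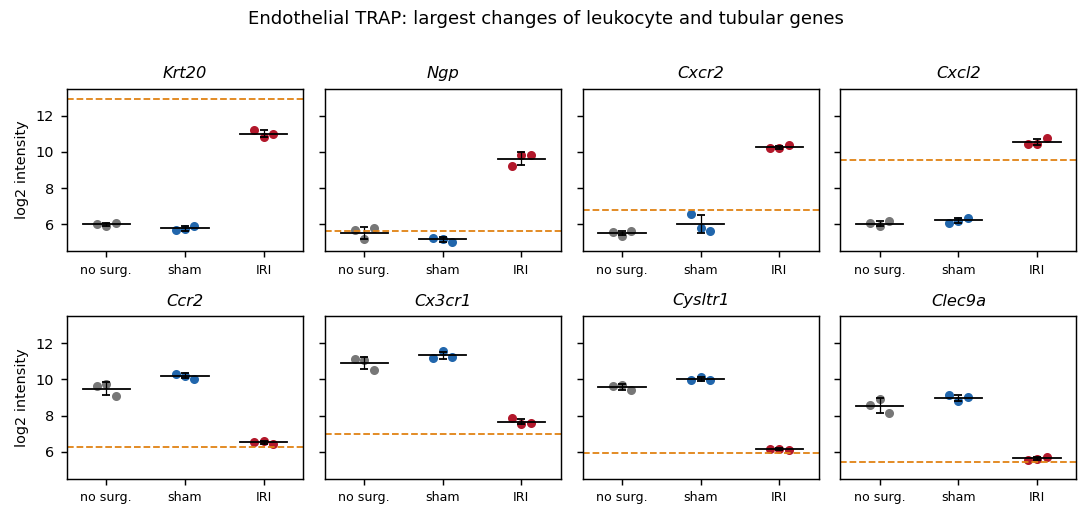
Log2 intensity of 8 genes known from tubule or blood cells in each endothelial array (points: grey no surgery, blue sham, red IRI, 3 arrays each; black lines mean ± SD); the dashed orange line is the mean of the 4 wild-type background arrays after IRI. Krt20 rose 38.1-fold and still lay below the background, Ngp and Cxcr2 rose far above it, and Ccr2, Cysltr1 and Clec9a fell to 0.24, 0.20 and 0.17 above it.

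The largest rise of all was that of a tubule gene. Krt20, a keratin of injured tubule epithelium, read 11.20, 10.86 and 11.00 after IRI and 5.65, 5.73 and 5.92 after sham (5.25 ± 0.41, 38.1-fold, adjusted p = 2.3e-12). In wild-type mice without a tag it rose by 6.49 ± 0.39 to a mean of 12.96, and the endothelial arrays lay 1.94 below that (adjusted p = 6.4e-06). Tubular injury genes rose in 21 and fell in 0 of 25 in the endothelial arrays, of which 9 lay below the background after IRI and 4 above it. Their mean log2 level was 10.29 to 10.34 after IRI and 8.47 to 8.69 after sham. Havcr1, the tubule injury gene KIM-1, did not follow them. Havcr1 read 7.61, 7.42 and 7.64 after IRI and 7.32, 8.11 and 7.67 after sham (-0.15 ± 0.73, adjusted p = 0.88), while it rose by 4.63 ± 0.74 to 12.27 in the background arrays. Lcn2, a second injury gene, rose by 1.99 (SE 0.48) to levels 0.78 below the background (adjusted p = 0.11 for that difference). Proximal tubule genes fell in 5 and rose in 2 of 25 (3 fell without sham replicate 2), and thick ascending limb and distal genes fell in 5 and rose in 1 of 14 (3 fell without IRI replicate 3). The proximal tubule mean was 11.20 in sham replicate 2 against 10.46 and 10.75 in the other sham arrays and 10.48 to 10.60 after IRI, and the part of tubule RNA in the fall of single genes was not tested. Akr1c18 and Cyp7b1 of steroid metabolism, Tmem52b and the organic anion transporter Slc22a19 were among the 12 largest falls and lay below the wild-type background after IRI by 1.37 to 1.86. Apela, a peptide ligand of the apelin receptor, fell from 11.82, 11.93 and 11.98 after sham to 8.86, 8.57 and 7.89 after IRI (-3.47 ± 0.42, adjusted p = 2.3e-08), and the transporter Abca9 (-3.40 ± 0.20) and Gpr141b (-3.36 ± 0.18) were also in that group.

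Background RNA was compared for all genes. After IRI 5125 genes (26.6%) lay above and 4438 (23.0%) below the wild-type background, and after sham 5697 (29.5%) lay above and 5097 (26.4%) below it. Of the 4131 genes that rose, 1998 lay above and 479 below the background after IRI. Of the 4178 that fell, 2088 lay above and 1225 below it after sham. Against arrays with the tag allele and no Cre, 3166 genes (16.4%) were higher in the endothelial line after IRI. In the wild-type background itself 3894 genes (20.2%) rose after IRI. Every array was brought to the same scale, so these levels show shares of the RNA on each array, and how much RNA came through without the tag is not known from them.

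The 5 promoter sequences printed here belong to Krt20, Ngp and Cxcl2, which had the largest rises, to Inhbb, the largest rise on an endothelial list for which a promoter sequence was given, and to Sele, added after its values were seen. Each is the 250 bases before the start site from RefSeq (GRCm38.p6), 5′ to 3′ on the strand of the gene. Capitals mark matches to motifs of AP-1 (TGANTCA), C/EBP (TTGCNNAA), NF-kB (by its usual consensus) on either strand, and to a TATA box (TATAAA) on the gene's strand. Among 32841 promoters of this length 6.75% held the AP-1 motif, 9.57% the C/EBP motif, 7.25% the NF-kB motif and 7.59% the TATA box. Krt20 is taken from chr11:99438154-99438403 on the minus strand, Ngp from chr9:110419558-110419807 on the plus strand, Cxcl2 from chr5:90903649-90903898 on the plus strand, Inhbb from chr1:119422249-119422498 on the minus strand and Sele from chr1:164047984-164048233 on the plus strand.
Krt20: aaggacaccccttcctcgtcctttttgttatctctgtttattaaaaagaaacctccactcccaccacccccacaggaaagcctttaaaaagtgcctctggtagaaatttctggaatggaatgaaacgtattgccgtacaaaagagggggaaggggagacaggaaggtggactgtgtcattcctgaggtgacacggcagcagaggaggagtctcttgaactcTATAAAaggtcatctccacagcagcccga
Ngp: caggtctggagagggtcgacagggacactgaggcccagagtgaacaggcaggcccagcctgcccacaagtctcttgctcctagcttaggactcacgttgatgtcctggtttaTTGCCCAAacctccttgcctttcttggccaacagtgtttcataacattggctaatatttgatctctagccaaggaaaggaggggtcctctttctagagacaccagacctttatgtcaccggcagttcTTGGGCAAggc
Cxcl2: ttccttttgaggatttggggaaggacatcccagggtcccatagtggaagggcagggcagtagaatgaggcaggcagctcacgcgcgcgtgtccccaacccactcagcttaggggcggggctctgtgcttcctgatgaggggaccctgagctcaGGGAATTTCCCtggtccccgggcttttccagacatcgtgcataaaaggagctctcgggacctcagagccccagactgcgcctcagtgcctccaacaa
Inhbb: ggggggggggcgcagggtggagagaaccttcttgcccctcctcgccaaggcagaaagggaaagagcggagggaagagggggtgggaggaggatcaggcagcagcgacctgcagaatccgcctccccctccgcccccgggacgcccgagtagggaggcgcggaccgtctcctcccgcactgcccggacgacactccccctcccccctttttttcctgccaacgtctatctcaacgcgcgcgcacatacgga
Sele: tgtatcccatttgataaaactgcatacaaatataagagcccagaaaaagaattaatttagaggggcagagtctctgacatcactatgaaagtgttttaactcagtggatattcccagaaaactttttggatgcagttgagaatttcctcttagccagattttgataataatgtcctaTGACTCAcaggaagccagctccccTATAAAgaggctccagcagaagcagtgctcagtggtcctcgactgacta
Cxcl2 held a pair of overlapping NF-kB matches, first at 97 bases before the start, and Ngp held C/EBP matches at 138 and 11 bases before it. Sele held an AP-1 match at 73 bases and a TATA box at 49 bases before its start, and Krt20 a TATA box at 29 bases. The Inhbb window held none of the 4 motifs. A match is a run of letters and no measured binding site.

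The endothelial response was then set against the mean response of the nephron, interstitial and myeloid lines. The signed endothelial change lay above that mean for 2699 genes (14.0%) and below it for 2884 (15.0%) at an adjusted p under 0.05. A change above the mean is a stronger rise or a lesser fall, and a change below it a stronger fall or a lesser rise. With each array shifted to the same median, 1797 lay above and 2967 below. Taken line by line, the endothelial response differed from the nephron response for 6416 genes (33.3%), from the interstitial for 4482 (23.3%) and from the myeloid for 4246 (22.1%).

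Among genes that also passed in the endothelial comparison itself, Foxf1 had the largest excess over the other lines. Its change was 4.10 in the endothelial line, -0.10 in the nephron, 1.00 in the interstitial and 0.33 in the myeloid line, a difference of 3.69 (adjusted p = 7.2e-17). Inhbb followed with 3.99 against 0.11, 1.13 and 1.20 (difference 3.17, adjusted p = 2.3e-11). Nmb, the peptide neuromedin B, changed by 2.78 in the endothelial line and by 0.38, -0.09 and 0.21 in the others. Kcnj8 rose in the endothelial line and fell in the nephron (-1.28) and interstitial lines (-0.91). Id4, an inhibitor of helix-loop-helix factors, rose by 1.34 in endothelium and fell in all the other lines, by 1.06, 1.16 and 1.23. The adaptor Bcar3 (2.29) and the ciliary gene Tctn3 (1.99) rose in the endothelial line, while in the other lines Bcar3 lay between -0.31 and 0.30 and Tctn3 between -0.43 and 0.13. Ngp rose in the endothelial (4.47) and myeloid lines (3.76), and also in the interstitial line.

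Among those whose endothelial change lay below the mean of the other lines, the stress kinase Mapk11 fell by 2.16 in endothelium and changed by 1.91, 0.95 and 0.62 in the nephron, interstitial and myeloid lines (difference -3.32, adjusted p = 2.4e-10). Nxpe4 read 6.48, 6.38 and 6.31 after IRI and 9.56, 9.51 and 9.65 after sham in the endothelial arrays, and its change in the other lines lay between -0.10 and 0.27. Rbp7, a retinol carrier of capillary endothelium, fell by 2.37 in the endothelial line and rose by 0.91 in the nephron line. The leukocyte genes Ccr2, Cysltr1 and Ms4a6b fell by more than 8-fold in the endothelial line. In the myeloid line Ccr2 changed by -0.74 and Cysltr1 by -1.27, and Ms4a6b by -0.38 (adjusted p = 0.35). Ifi44l, an interferon-induced gene, read 7.18, 7.02 and 7.24 after IRI and 10.91, 10.49 and 11.04 after sham, and without surgery it read 11.30, 6.30 and 11.23, so 1 unoperated array lay below all IRI arrays. For Dph6, of diphthamide synthesis, the endothelial fall was 2.74 (SE 0.45), and the wild-type background stood 2.05 above the endothelial arrays after IRI.

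**Figure D4:**
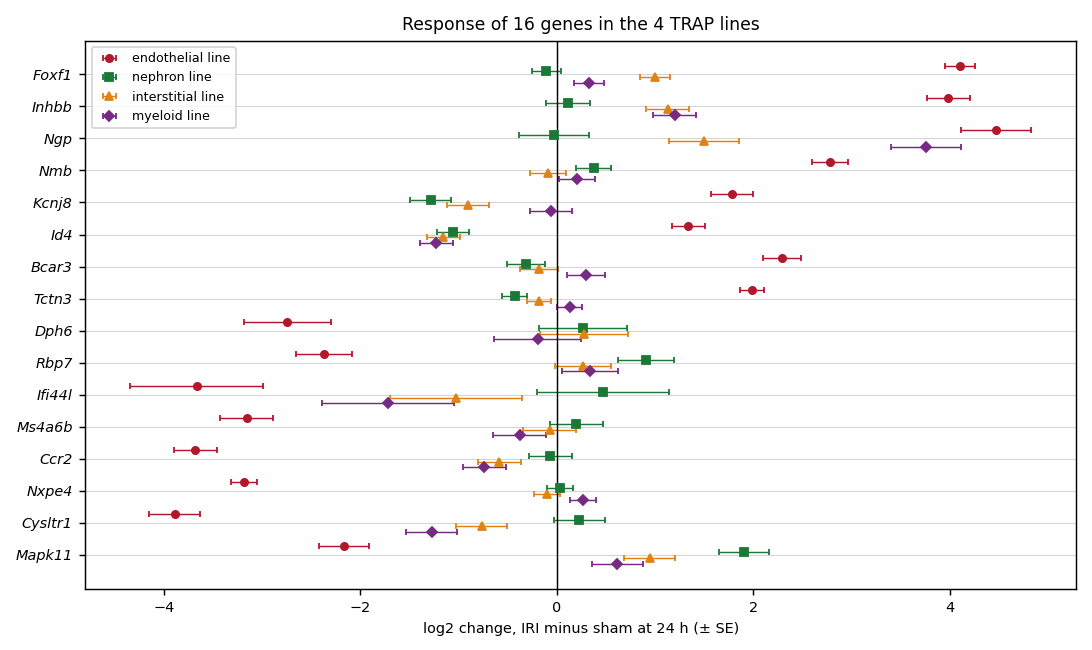
Log2 change (IRI minus sham at 24 h, ± SE of the fit) of 16 genes in the endothelial, nephron, interstitial and myeloid TRAP lines, ordered by how far the endothelial response exceeded the mean of the others. Foxf1 (4.10) and Inhbb (3.99) rose more in the endothelial line than in any of the others, Id4 rose there while it fell in the other lines, and Mapk11 fell there while it rose in the nephron and interstitial lines.

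By list, the endothelial change lay above the mean of the other lines for 13 of 18 neutrophil genes and for 16 of 25 proximal tubule genes, and below it for 0 in both. It lay below that mean for 10 of 30 pan-endothelial markers, 12 of 27 macrophage genes and 9 of 16 lymphocyte genes. Among 38 angiogenic genes 12 lay above and 14 below. Neutrophil genes had a median change of 2.90 in the endothelial line and 0.17, 1.61 and 3.84 in the nephron, interstitial and myeloid lines. Their median rise was thus larger in the myeloid line than in the endothelial line. Lymphocyte genes had a median change of -0.54 in the endothelial line and -0.12, -0.07 and -0.01 in the nephron, interstitial and myeloid lines, and macrophage genes -0.69 against 0.16, -0.59 and -0.10. Proximal tubule genes went the other way, with a lesser fall in the endothelial line: their median was -0.23 in the endothelial line and -0.74, -1.40 and -1.41 in the nephron, interstitial and myeloid lines.

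**Figure D5:**
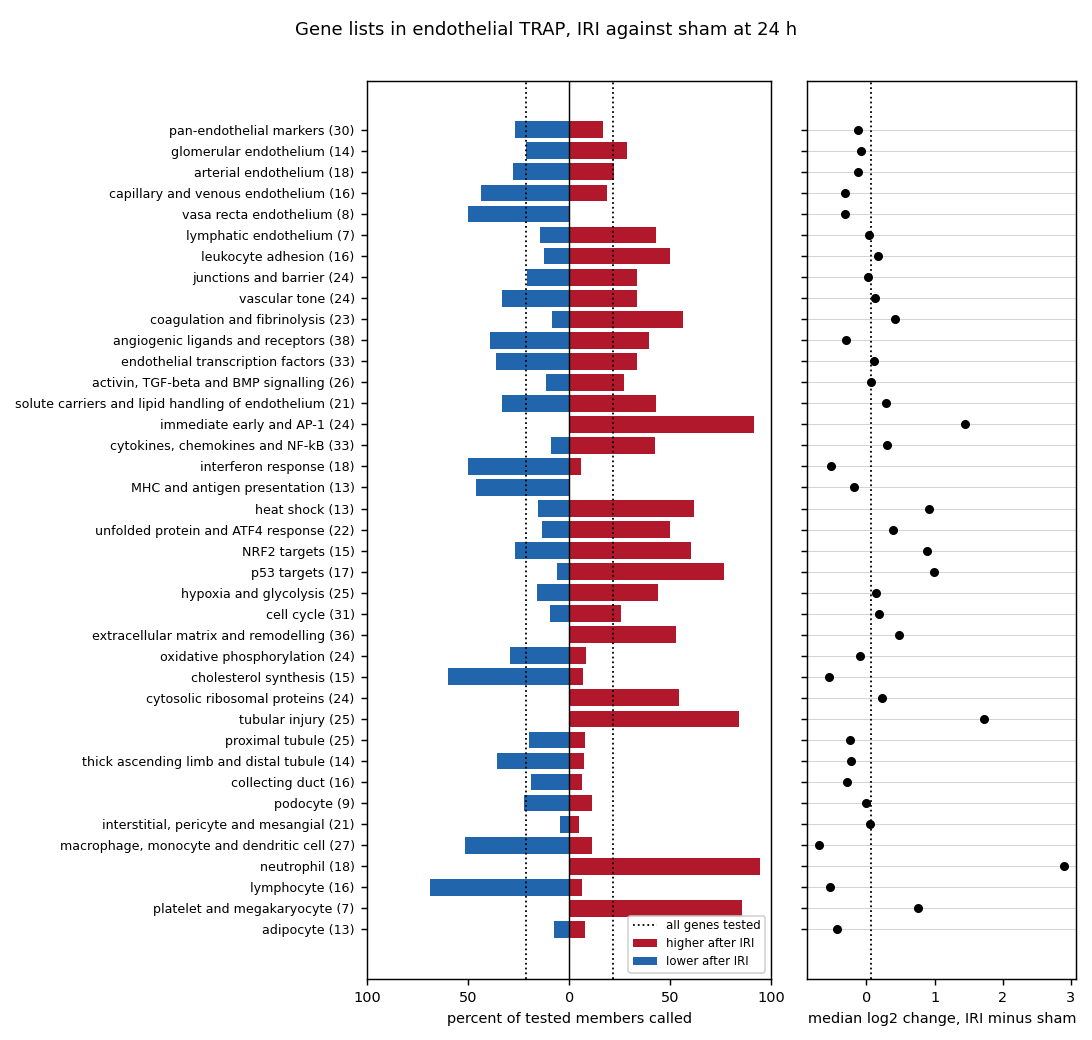
Left, percent of the tested members of each gene list (number in brackets) called higher (red, to the right) or lower (blue, to the left) after IRI in the endothelial arrays, with dotted lines at the 21.5% and 21.7% of all genes; right, the median log2 change of each list, with a dotted line at the median of all genes. Neutrophil, AP-1, platelet and tubular injury lists reach farthest to the right, and lymphocyte, cholesterol synthesis and macrophage lists farthest to the left.

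Between sham and no surgery 142 genes (0.738%) passed in the endothelial arrays, 49 higher and 93 lower after sham. These arrays are also the controls of the IRI comparison, so the values stand side by side and are not independent. Proliferation genes were among the lower ones: Top2a read 7.52, 7.26 and 8.03 after sham and 9.02, 8.80 and 8.91 without surgery (-1.31 ± 0.19, adjusted p = 9.4e-05), and Mki67 was lower by 1.16 (SE 0.23). After IRI Top2a read 7.06, 7.07 and 7.23 and Mki67 7.93, 8.11 and 8.29. Cell cycle genes rose in 8 and fell in 3 of 31 against sham but rose in 1 and fell in 16 against no surgery.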

How the data were processed

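RNA was hybridised to Affymetrix arrays. The deposited intensity per probe set was made by the authors with RMA, run in Expression Console 1.3.1 per the submitters' processing notes, and the probe set level and annotation build are not given in the sources used here. The values are linear and run from 7.15 to 19571, so their log2 was taken before any test. Total RNA arrays were scaled apart. They entered the estimate of the spread, the choice of probe set per gene and the filter on level. Of 35556 probe sets 21789 had 1 gene symbol, 1621 several and 12146 none, and a gene's level is that of its brightest single-symbol probe set. Genes above log2 5 in at least 3 arrays were tested by moderated linear models (limma 3.58.1, R 4.3.3), with 1 coefficient per group and Benjamini-Hochberg adjustment. The fit of 45 arrays (30 residual degrees of freedom, median residual SD 0.152) gave the IRI, sham and line comparisons, and the fit of 57 arrays gave comparisons with background arrays. A gene is called at an adjusted p under 0.05. Figures were drawn with matplotlib 3.10.9 in Python 3.11.15. The number of arrays limits the precision, and no batch was used.

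The members and the 40 gene lists, of which 829 of 904 entries matched a measured gene, were chosen with earlier results of these data known. Named genes are the 12 highest and 12 lowest called genes with non-overlapping arrays, up to 4 called members of each list, 8 genes at each end of the response difference and a fixed panel, without predicted genes, small RNAs and olfactory receptors. Other list members given with values were chosen after their values were seen, and not every gene of the rule is printed. The lists cover endothelial subtypes and functions, stress and metabolic responses and other kidney and blood cells. Arrays that share a replicate number across IRI and sham were checked for pairing: their deviations from the group means correlated at -0.08, -0.24 and -0.11, so no block entered the fit. Alternatives tried were other sets of arrays, scaling, offsets, filters, probe set rules, variance models, array weights, a replicate block, another control group and leaving out each array.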

Additional observations from a re-analysis of the deposited data

Results flagged for a closer look

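The endothelial response differed from the mean response of the other 3 lines for 5583 genes by the test of that difference in limma. Among genes that also passed in the endothelial comparison, the largest such differences (log2, endothelial minus the mean of the others) were, with the endothelial change above that mean, Foxf1 (3.69), Inhbb (3.17), Ngp (2.73), Nmb (2.62), Kcnj8 (2.54), Id4 (2.49), Bcar3 (2.36) and Tctn3 (2.15). With the endothelial change below it they were Mapk11 (-3.32), Cysltr1 (-3.29), Nxpe4 (-3.25), Ccr2 (-3.22), Ms4a6b (-3.07), Ifi44l (-2.91), Rbp7 (-2.87) and Dph6 (-2.86). The endothelial and interstitial mice were 6 weeks old and the IRI and sham mice of the nephron and myeloid lines older. The part of age was not tested.

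Among the 24 highest and lowest genes, 3 had a wild-type background array after IRI that stood apart from the other 3. Hdc read 7.68 in 1 such array against 9.65 to 9.79 in the others, Inhbb 8.00 against 9.91 to 10.19 and Cx3cr1 6.64 against 7.04 to 7.09. Chance sets an array apart in about 1 of 20 groups. The background means of these genes given above include those arrays.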

How the results depend on the processing

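The main comparison was run under 20 alternatives and the response difference under 17. Counts of called genes stayed within 1.5 times the reported ones except as follows. Asking for at least a 2-fold change left 2048 of 8309 genes, 646 higher and 1402 lower. For the response difference, array weights gave 9352 genes (5025 above, 4327 below the mean of the other lines), and shifting each array to the same median gave 1797 above. The cause was not tested. Leaving out each endothelial array in turn gave 6677 to 7885 calls (3054 to 3945 higher, 3623 to 3940 lower) and 4385 to 5084 response differences (1965 to 2417 above, 2420 to 2667 below). With the replicate number as a replicate block, 8602 genes were called, and 6011 for the response difference. Same-numbered arrays did not deviate together, but with 3 arrays per group this check cannot decide whether they were paired.

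Of 173 named genes called in the main comparison 157 were called under every alternative that was run, and of 110 response differences 94. With no surgery as the control, Rrm2 (-0.11, adjusted p = 0.76) and Scnn1g (0.012, adjusted p = 0.98) changed sign, and neither passed. Cytosolic ribosomal protein genes rose in 13 of 24, but in 8 after a further quantile normalization and in 8 without sham replicate 3. Dim genes limit what can be seen: 7 of 16 lymphocyte markers stayed under log2 6.5 in all 6 arrays.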

Other observations

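Several gene groups lay outside the comparisons above. Of 24 cytosolic ribosomal protein genes 13 rose and 0 fell in the endothelial arrays. Each of these rises was less than 2-fold, led by Rps19 (0.77 ± 0.14). The list had a median change of 0.22 in the endothelial line, 0.48 in the nephron, 0.71 in the interstitial and 0.04 in the myeloid line. In the wild-type background the median was 0.88. The endothelial change lay above the mean of the other lines for 0 of the 24 and below it for 2. Cholesterol synthesis genes fell in 9 and rose in 1 of 15: the mevalonate kinase Mvk fell by 1.12 (SE 0.11) and squalene epoxidase, Sqle, by 1.11 (SE 0.27), whereas Pmvk, the next kinase of the pathway, rose by 0.95 (SE 0.13). The median of this list was -0.54 in the endothelial line and -0.80, -0.52 and -0.31 in the nephron, interstitial and myeloid lines. In the wild-type background it was -0.86, and 2 of the 15 genes lay above that background after IRI. Oxidative phosphorylation genes fell in 7 and rose in 2 of 24, with Sdha at -0.84 ± 0.12, and 3 fell without sham replicate 2. Of all genes 21.7% fell and 21.5% rose. The median of these 24 was -0.09 in the endothelial line and -0.19, -0.30 and -0.16 in the nephron, interstitial and myeloid lines. Their endothelial change lay above the mean of the other lines for 6 and below it for 0.

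Markers of other kidney cells changed in few members. Interstitial, pericyte and mesangial genes were higher in 1 and lower in 1 of 21 by the same test, with the contractile gene Tagln at 1.60 ± 0.18 and the integrin Itga8 at -1.04 ± 0.17. Podocyte genes were higher in 1 and lower in 2 of 9 by the same test, with Cdkn1c at 1.22 ± 0.14, and collecting duct genes were higher in 1 and lower in 3 of 16 by the same test, with the vasopressin receptor Avpr2 at -2.07 ± 0.27. Adipocyte genes rose in 1 and fell in 1 of 13. Of 4 erythroid genes 1 rose, the haem synthesis gene Alas2 (1.64 ± 0.29).

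Some tubule and injury genes differed from the other lines without passing in the endothelial comparison itself. Slc12a1, the salt carrier of the thick ascending limb, changed by 0.08 ± 0.31 in the endothelial arrays, 2.88 above the mean change of the other lines. Egf changed by 0.47 ± 0.52 and lay 2.64 above that mean. Havcr1 lay 3.62, Fgb 3.34 and Fgg 3.19 below it, and none of the 3 passed in the endothelial arrays (adjusted p = 0.88, 0.83 and 0.69).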
